A study of Mus musculus with 8 samples.

Results

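The transcription factors that set the CD4 lineage and the helper fates of T cells were followed in naive CD4 T cells of mice in which Satb1, a chromatin-organising protein of the T cell lineage, can be deleted. The set was given by name and holds 9 genes, Gata3, Zbtb7b, Runx1, Runx3, Tbx21, Rora, Ahr, Maf and Bcl6. All 9 are listed in the authors' normalized table of 16418 genes. RNA was sequenced from 8 libraries. The 4 KO libraries (Sample_2907_KO, Sample_2908_KO, Sample_2909_KO and Sample_2910_KO) came from Satb1fl/fl x CD4-CreERT2wt/+ mice given tamoxifen. The 4 WT libraries (Sample_2911_WT, Sample_2913_WT, Sample_2914_WT and Sample_2915_WT) came from untreated mice of that same genotype, so both groups carry the floxed alleles and the inducible Cre, and tamoxifen was given to KO only. Cre is expressed from CD4 sequences in this line, and tamoxifen and the intended deletion cannot be told apart. By label the cells carried CD3, CD4 and CD62L, lacked CD25, and had little or no CD44. The tissue label names spleen and lymph node, whereas the extraction protocol names splenic cells, and no age or sex of the mice is stated in the labels.

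A developing T cell chooses between the CD4 and CD8 lineages under opposing factors. ThPOK, the product of Zbtb7b, holds the CD4 fate, RUNX proteins silence Cd4 and Zbtb7b and promote the CD8 fate, and GATA3 acts upstream of ThPOK. A mature naive CD4 T cell can then take a helper fate, each with its own lead factor: T-bet, the product of Tbx21, with RUNX3 for Th1, GATA3 for Th2, RORα with AHR and c-MAF for Th17, and BCL6 with c-MAF for follicular helper cells. Naive cells keep most of these helper factors low until they are activated.

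The targeted gene and the libraries were examined first. KO libraries held 7544075 to 9253620 counted reads and WT libraries 5227758 to 21998174. Satb1 (chr17:51736187-51833290, minus strand, mm10) stood at 855.1, 1032, 839.6 and 913.2 CPM, the count scaled by library size in the KO libraries, against 987.2, 1015, 1046 and 1083 CPM in the WT libraries. The groups overlapped through Sample_2908_KO, and the difference of -0.18 on the log2 scale missed the threshold (SE 0.059, edgeR quasi-likelihood test, adjusted p = 0.0582). In the 3 annotated genes with the most reads among those inside Satb1 on its strand (E430014B02Rik, C230085N15Rik and Gm36931, chosen with their values known), the summed level was 3.91, 2.30, 3.57 and 3.62 CPM in the KO libraries, against 30.1, 24.3, 32.3 and 30.8 CPM in the WT libraries, so that Sample_2908_KO, with the highest Satb1 among the KO libraries, had the lowest level there. KO is used below as the name of the label. The label was checked against 9 markers of naive CD4 T cells, all of which passed the count filter, Cd3d, Cd3e, Cd3g and Trac among them, and they summed to 6291 to 6842 CPM in KO and 5775 to 6016 CPM in WT.

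The factors differed widely in level. Set per kilobase of merged exon, Zbtb7b was the highest member in each of the 8 libraries, with 40.4 to 50.6 CPM per kb in KO and 43.5 to 50.9 in WT. Runx3 followed with 20.5 to 26.2 CPM per kb in KO and 15.9 to 20.2 in WT. Gata3 came next with 16.6 to 19.5 CPM per kb in KO and 12.8 to 14.2 in WT. Runx1 had 8.75 to 10.2 CPM per kb in KO and 8.76 to 9.31 in WT, and Bcl6 had 2.55 to 4.07 in KO and 3.62 to 4.18 in WT. This order of the upper 5 members was the same in every library. Below them, Rora (0.841 to 1.59 CPM per kb in KO, 0.975 to 1.37 in WT) and Maf (0.813 to 1.26 in KO, 0.609 to 0.831 in WT) exchanged places between libraries. Ahr (0.178 to 0.478 CPM per kb in KO, 0.116 to 0.263 in WT) and Tbx21 (0 to 0.344 in KO, 0 to 0.217 in WT) were lowest and also exchanged places. The helper factors other than Gata3 and Runx3 were thus the lower members in both groups.

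**Figure D1:**
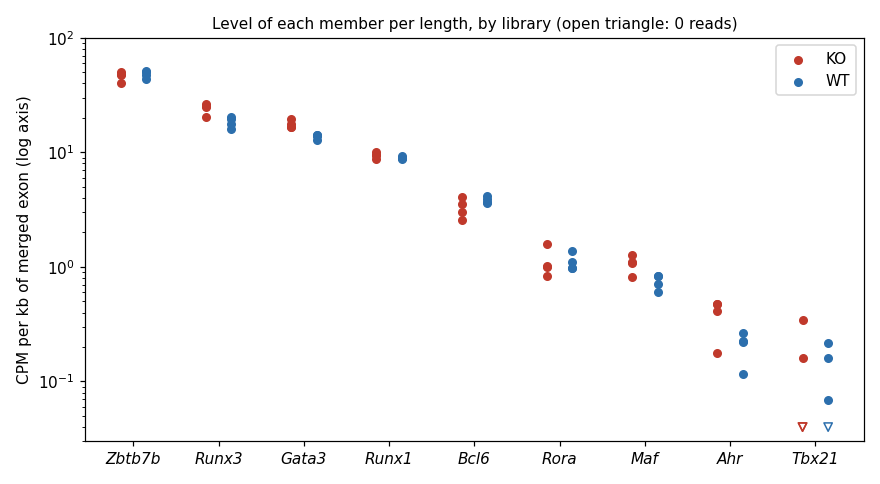
Level of each of the 9 members in every library, as TMM-scaled CPM per kilobase of merged exon on a log axis, with KO points left of WT points and open triangles for libraries with 0 reads. Zbtb7b, Runx3, Gata3, Runx1 and Bcl6 keep their order in all 8 libraries, and Tbx21 reaches 0 in 3 libraries.

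Gata3 and Runx3 were higher in KO, and the other 6 tested members did not pass the threshold. Of the 8 members tested, 2 were called higher and 0 lower at an adjusted p under 0.05, where 3.98% of the 11772 tested genes were called higher, 2.41% lower and 6.39% in either direction. The libraries of the groups did not overlap for the same 2 members, both higher in KO, against 6.23% of tested genes higher without overlap, 4.86% lower and 11.1% in either direction. The median log2 fold change of the 8 was 0.21, beside -0.00047 over all genes tested. In bulk RNA a change in the share of some cells and a change in RNA per cell cannot be told apart.

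**Figure D2:**
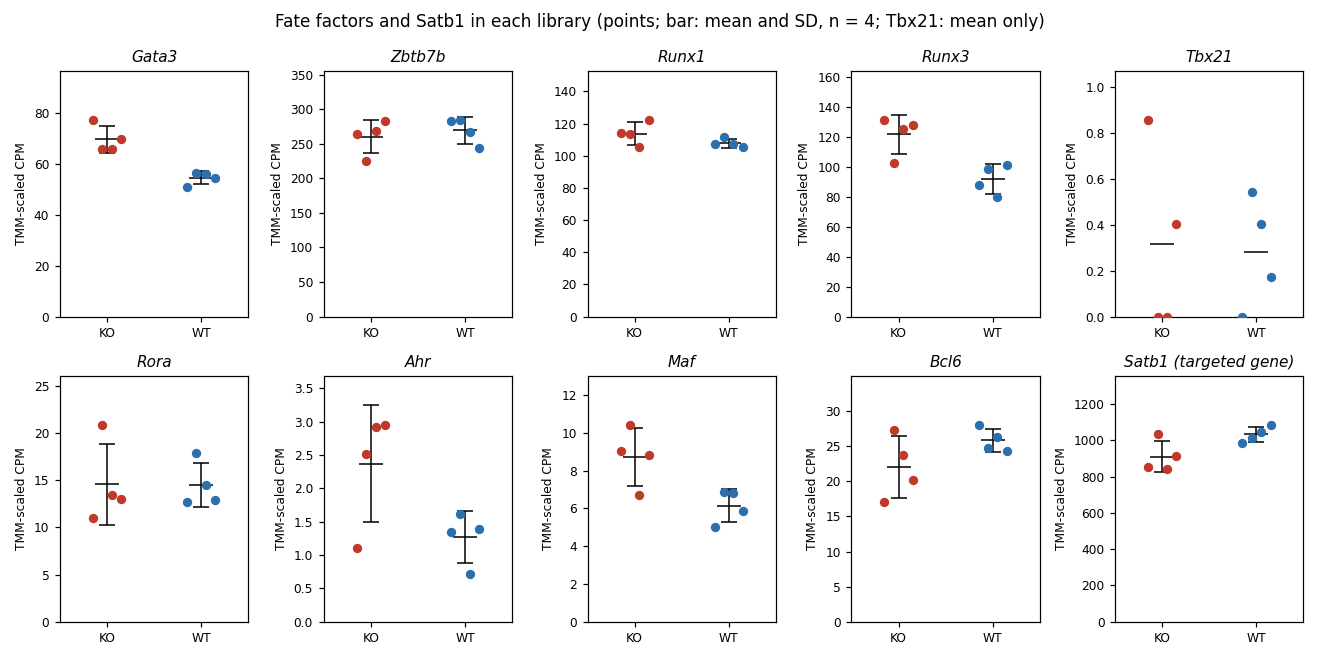
TMM-scaled CPM of the 9 members and of Satb1 in each library, with KO left of WT in every panel, all axes starting at 0, and bars for the mean and SD (n = 4 per group; mean only for Tbx21). Gata3 and Runx3 separate the groups, with the lowest KO library at 66.0 and 102.6 CPM and the highest WT library at 56.6 and 100.9 CPM.

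The promoters of the members that rose are shown because they are the stretches in which shared short motifs could be looked for. They are the 250 bases before a RefSeq start (GRCm38.p6), printed 5′ to 3′ along the gene, and matches are in capitals. Each motif was searched on both strands. A RUNX match is the run of letters TGTGGT, or as the other form searched, TGCGGT. For STAT factors the letters were TTCNNNGAA. For GATA factors a match begins with A or T, and the letters that follow it are GATAA in one form and, in the other form searched, GATAG. The upstream start of Runx3 (chr4:135120395-135120644, plus strand) and the only listed start of Gata3 (chr2:9878601-9878850, minus strand) are followed by the downstream start of Bcl6 (chr16:23981284-23981533, minus strand), shown for its repeated STAT match.
Runx3 upstream: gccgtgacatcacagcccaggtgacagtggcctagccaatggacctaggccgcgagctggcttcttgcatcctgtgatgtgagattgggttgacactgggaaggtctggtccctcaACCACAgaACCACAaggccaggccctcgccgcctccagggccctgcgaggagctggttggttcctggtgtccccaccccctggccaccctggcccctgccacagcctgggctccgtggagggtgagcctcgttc
Gata3: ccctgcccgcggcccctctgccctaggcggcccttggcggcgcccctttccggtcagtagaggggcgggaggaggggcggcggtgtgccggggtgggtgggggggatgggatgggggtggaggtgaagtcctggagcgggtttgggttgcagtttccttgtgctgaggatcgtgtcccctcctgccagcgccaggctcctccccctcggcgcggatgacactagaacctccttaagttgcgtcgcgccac
Bcl6 downstream: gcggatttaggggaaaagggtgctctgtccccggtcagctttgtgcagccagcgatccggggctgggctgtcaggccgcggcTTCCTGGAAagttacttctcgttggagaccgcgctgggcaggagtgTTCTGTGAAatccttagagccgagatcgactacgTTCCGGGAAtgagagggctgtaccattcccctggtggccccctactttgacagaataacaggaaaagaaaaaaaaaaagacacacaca

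Runx3 held 2 RUNX matches in its upstream window, both read as ACCACA on the gene's strand, beginning 134 and 126 bases before the start. Its downstream window (chr4:135152295-135152544) and the Gata3 window held no match to any of these motifs. In the downstream Bcl6 window the STAT letters matched 3 times, beginning 168, 122 and 88 bases before the start, and the upstream Bcl6 window (chr16:23988853-23989102) had 1 match. Zbtb7b had 1 RUNX match and Rora 1 GATA match. Over all 32851 windows of this length, 18.6% held a RUNX match, 26.5% a GATA match and 7.02% a STAT match. Windows were found for 7 members, 11 in all, and none for Maf and Ahr. These are matches of letters and say nothing of binding, and Gata3 and Runx3 shared none of these motifs in these windows.

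Among the factors of the lineage choice, Gata3 and Runx3 rose while Zbtb7b and Runx1 had values close to those of WT. Gata3 (chr2:9857078-9890034, minus strand), a zinc finger factor needed at CD4 commitment and for Th2 cells, had 77.4, 66.0, 66.1 and 69.9 CPM in the KO libraries, against 51.0, 56.6, 56.3 and 54.7 CPM in the WT libraries. Every KO library was above every WT library. KO averaged 69.9 ± 5.36 CPM, against 54.6 ± 2.59 CPM for WT (SD over 4 libraries each). Gata3 thus rose 1.27-fold, or 0.35 on the log2 scale with an SE of 0.075 (edgeR adjusted p = 0.00268). The antisense gene Gm13256 shares 155 exon bases with Gata3 and had 7 reads in KO and 7 in WT, beside 2370 and 2473 reads for Gata3.

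Runx3 (chr4:135120652-135177990, plus strand), the RUNX factor of the CD8 fate and of Th1 cells, had 131.2, 102.6, 124.9 and 127.8 CPM in the KO libraries, against 88.0, 98.8, 79.7 and 100.9 CPM in the WT libraries. The groups separated narrowly, by the gap between Sample_2908_KO and Sample_2915_WT. KO averaged 121.6 ± 12.9 CPM, against 91.8 ± 9.90 CPM for WT (SD over 4 libraries each). Runx3 thus rose 1.33-fold, or 0.41 on the log2 scale with an SE of 0.082 (edgeR adjusted p = 0.00231). Both calls ended when the shallowest WT library, Sample_2911_WT, and the deepest, Sample_2914_WT, were left out together. The log2 fold changes were then 0.33 for Gata3 (edgeR adjusted p = 0.0549) and 0.28 for Runx3 (0.0931), with 2 WT libraries left, and over the other 17 alternatives the adjusted p stayed under the threshold for both. Across all 18 alternatives the log2 fold change lay between 0.30 and 0.38 for Gata3 and between 0.28 and 0.49 for Runx3.

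Runx1 (chr16:92601466-92826149, minus strand), the RUNX factor that silences Cd4 in early thymocytes, had 114.3, 113.4, 105.3 and 122.3 CPM in the KO libraries, against 107.3, 111.9, 107.2 and 105.3 CPM in the WT libraries. The groups overlapped, and the log2 fold change was 0.08 (95% interval -0.05 to 0.20, edgeR adjusted p = 0.578). Within each library, Runx3 per kb stood at 2.76, 2.18, 2.85 and 2.51 times Runx1 in KO, against 1.97, 2.12, 1.79 and 2.30 times in WT. Sample_2908_KO lay below Sample_2915_WT in this ratio, so the groups overlapped.

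Zbtb7b (chr3:89377644-89394776, minus strand), which encodes ThPOK, had 264.3, 225.7, 268.4 and 283.0 CPM in the KO libraries, against 283.1, 284.4, 266.7 and 243.1 CPM in the WT libraries. The lowest value of all was again in Sample_2908_KO. The log2 fold change was -0.05 (interval -0.17 to 0.08, edgeR adjusted p = 0.783), and it was 0.02 without that library. The antisense gene Gm15417, which shares 116 exon bases with Zbtb7b, had 68 reads in KO and 127 in WT. Relative to Zbtb7b per kb, Gata3 stood at 0.346 to 0.412 in the KO libraries and at 0.253 to 0.316 in the WT libraries, and Runx3 at 0.505 to 0.555 in KO and 0.334 to 0.464 in WT. Neither ratio overlapped between the groups. Gata3 and Runx3 did not overlap by themselves, so these ratios are not separate evidence.

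**Figure D3:**
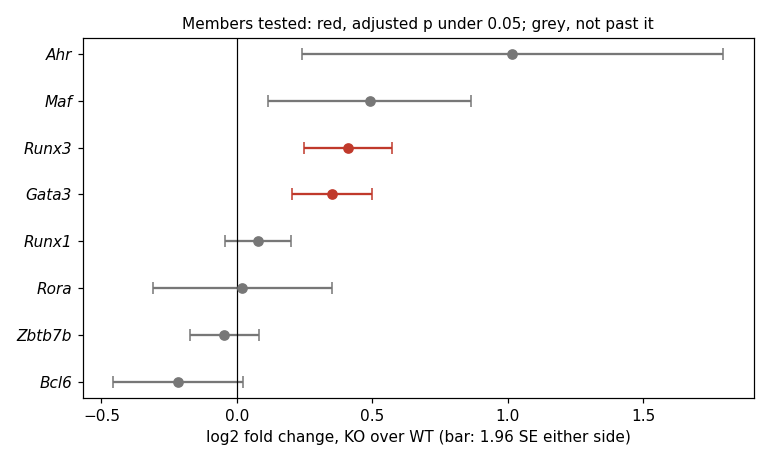
Log2 fold change of KO over WT for the 8 members that passed the count filter, with bars for the 95% interval, red for an adjusted p under 0.05 and grey otherwise. Runx3 (0.41) and Gata3 (0.35) pass, whereas Ahr (1.02) and Maf (0.49) have larger values with wider bars.

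The Th17 factors Maf and Ahr had higher means in KO without passing the threshold, and Rora averaged 14.6 CPM in KO and 14.5 CPM in WT. Maf (chr8:115682942-115707794, minus strand), the gene of c-MAF, had 9.04, 10.4, 6.70 and 8.84 CPM in the KO libraries (74, 95, 62 and 66 reads), against 5.02, 6.85, 6.82 and 5.89 CPM in the WT libraries (26, 38, 153 and 68 reads). Only Sample_2909_KO fell within the WT range. The log2 fold change was 0.49 (SE 0.19, interval 0.12 to 0.86), and the edgeR fit gave an adjusted p = 0.142 (0.0157 before adjustment over all genes).

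Ahr (chr12:35497974-35535038, minus strand), a receptor for aryl hydrocarbons that supports IL-22 production, was scarce, with 9, 23, 27 and 22 reads in the KO libraries and 7, 9, 16 and 16 reads in the WT libraries. These are 1.10, 2.52, 2.92 and 2.95 CPM in KO, against 1.35, 1.62, 0.713 and 1.39 CPM in WT. Sample_2907_KO lay inside the WT range and the other 3 KO libraries above it. Pooled over libraries, KO stood at 2.22 times WT (counting interval 1.53 to 3.24, exact), while the edgeR fit gave a log2 fold change of 1.02 (SE 0.40, adjusted p = 0.142), which counts the spread between libraries as well. In each group 3 libraries reached the level of the count filter. Gm48236, on the other strand with 127 shared exon bases, had 1 read in KO and 8 in WT, and without stranded counts such reads cannot be told apart from those of Ahr.

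Rora (chr9:68653786-69388246, plus strand), a nuclear receptor of the Th17 programme, had 10.99, 20.8, 13.4 and 13.0 CPM in the KO libraries, against 12.7, 17.8, 14.5 and 12.9 CPM in the WT libraries. Sample_2908_KO held the highest value of all, and the spread in KO was 29.6% of the mean. The log2 fold change was 0.02 (interval -0.31 to 0.35, edgeR adjusted p = 0.973), and -0.21 without Sample_2908_KO.

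The lead factors of Th1 and follicular helper cells gave no call. Tbx21 (chr11:97098071-97115331, minus strand) was near the limit of detection, with 7, 0, 0 and 3 reads in the KO libraries and 0, 3, 9 and 2 reads in the WT libraries. Most of its KO reads were in Sample_2907_KO. The pooled ratio of KO to WT was 0.939, with an exact counting interval of 0.373 to 2.27, and an exact 2-sided permutation test on CPM gave p = 0.914, where 0.0286 is the smallest p the design allows. Without Sample_2907_KO the pooled ratio was 0.371.

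Bcl6 (chr16:23965052-23988852, minus strand), a repressor that directs the follicular helper fate, had 17.1, 27.3, 23.7 and 20.2 CPM in the KO libraries, against 27.98, 24.7, 26.3 and 24.2 CPM in the WT libraries. Sample_2908_KO stood within the WT range and the other 3 KO libraries below it. KO averaged 22.1 ± 4.4 CPM, against 25.8 ± 1.70 CPM for WT (SD over 4 libraries each), with a log2 fold change of -0.22 (interval -0.46 to 0.02, edgeR adjusted p = 0.372), and -0.34 (adjusted p = 0.103) without Sample_2908_KO. Gm37419, on the other strand with 21 shared exon bases, had 12 reads in KO and 3 in WT. In Sample_2908_KO, Gata3, Runx3 and Zbtb7b stood at the low end of the KO values, and Rora, Maf and Bcl6 at the high end.

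**Figure D4:**
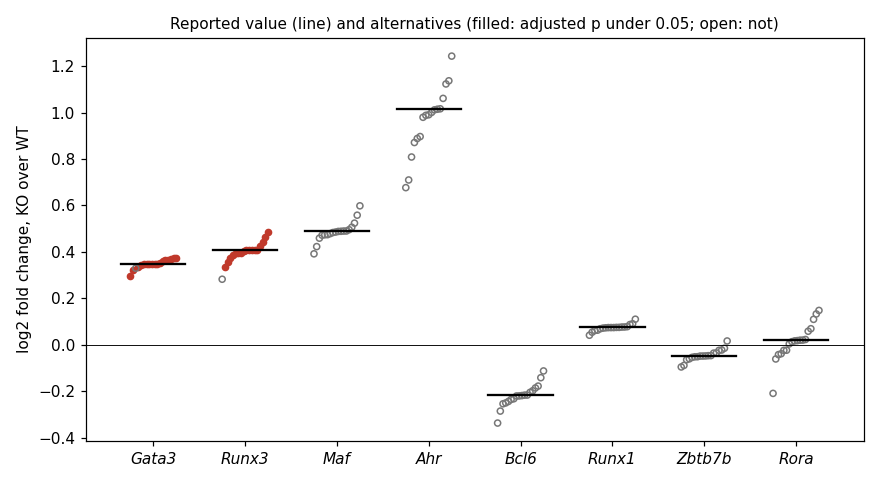
Log2 fold change of KO over WT for the 8 tested members as reported (line) and under each alternative analysis (points; filled for an adjusted p under 0.05, open otherwise). Gata3 and Runx3 stay above 0.28 with 1 open point each, while the values for Rora and Zbtb7b fall on both sides of 0.

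The genes around these factors were described through 8 lists holding 121 distinct genes besides the members. Of the 73 that were tested, 9 were higher and 7 lower in KO, together 21.9%, beside 6.39% of all genes tested. Because the lists were chosen with earlier results of these data known, the difference between these shares was not tested. In the lineage choice list 1 of 18 tested genes was higher and 3 were lower (median log2 fold change -0.06). Cd4 itself, which RUNX proteins repress in the CD8 lineage, was lower in KO. It had 553.1 to 620.2 CPM in KO and 630.9 to 697.7 CPM in WT (log2 fold change -0.19, edgeR adjusted p = 0.0242). A link to the higher Runx3 was not tested. Tcf7, the gene of the T cell factor TCF1, fell to 1738 to 1966 CPM in KO, against 2224 to 2450 CPM in WT (-0.29, adjusted p = 0.000291). Of the Ikaros family, Ikzf1 fell (-0.21, adjusted p = 0.00892) and Ikzf3, which encodes Aiolos, rose (0.25, adjusted p = 0.00789). Cbfb, the shared partner of the RUNX proteins, had 183.4 CPM in KO and 183.9 CPM in WT on average (log2 fold change -0.0013, adjusted p = 0.995). The Cd4 call was lost in 4 alternatives, that of Ikzf3 in 3 and that of Ikzf1 in 1.

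Relatives of the members were mostly scarce. Of 23 relatives 9 were tested, and 1 rose, the small MAF protein gene Mafg, with 29.2 to 38.8 CPM in KO and 23.2 to 26.7 CPM in WT (log2 fold change 0.44, adjusted p = 0.0103). The call was lost without Sample_2907_KO (edgeR adjusted p = 0.0784). Gata4, Gata6 and Zbtb7c had no read. Runx2, the remaining RUNX gene, was not tested, and had 11, 7, 7 and 12 reads in the KO libraries against 3, 4, 10 and 7 in the WT libraries, a pooled ratio of 2.03 (counting interval 1.18 to 3.54). The Th1 partner Eomes (6.42 CPM in KO and 5.30 CPM in WT) and the BCL6 antagonist Prdm1 (9.22 and 9.13 CPM, in the same order) did not pass (edgeR adjusted p = 0.579 and 0.953).

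The Th1 list had 1 higher and 0 lower of 9 tested genes (median log2 fold change 0.15), although all 9 values were above 0. Its changed gene was Ifngr1, a chain of the interferon gamma receptor, at 289.7 to 327.7 CPM in KO and 98.6 to 126.6 CPM in WT (log2 fold change 1.46, edgeR adjusted p = 2.03e-11). The Th1 chemokine receptor gene Cxcr3 was too scarce to test. It had 5, 1, 1 and 0 reads in KO and 6, 7, 14 and 5 in WT, a pooled ratio of 0.287 (counting interval 0.107 to 0.663). At 0.611 CPM, Sample_2907_KO lay inside the WT range of 0.433 to 1.26 CPM, and without that library the pooled ratio was 0.108.

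The Th2 list had 2 higher and 0 lower of 6 tested genes (median log2 fold change 0.18). These were the IL-4 receptor chain gene Il4ra, with 421.3 to 535.4 CPM in KO and 381.4 to 416.1 CPM in WT (log2 fold change 0.27, edgeR adjusted p = 0.00846), and Stat6, which relays its signal, with 352.6 to 395.2 CPM in KO and 313.9 to 335.4 CPM in WT (0.21, adjusted p = 0.0152). Stat6 lost its call in 3 alternatives and Il4ra in 1. Th2 cytokine genes were at or near 0 in both groups, with 6 reads of Il4 in KO and 8 in WT and no read of Il13. Ccr8, a Th2 chemokine receptor gene, was not tested, with 0, 1, 3 and 2 reads in KO and 6, 2, 26 and 6 in WT (pooled ratio 0.197, counting interval 0.0683 to 0.468).

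In the Th17 list 2 of 11 tested genes were higher and 1 lower (median log2 fold change 0.05). Irf4, a factor that several helper fates need, had 10.2 to 13.3 CPM in KO and 5.54 to 7.57 CPM in WT (log2 fold change 0.91, edgeR adjusted p = 0.000647). Stat3 rose (0.19, edgeR adjusted p = 0.0380) and Smad3 fell with overlapping libraries (-0.25, edgeR adjusted p = 0.0349), and these genes lost their calls in 9 and 10 of the 18 alternatives. Il17a and Il22 had no read in either group. Batf, a partner of IRF4, averaged 28.6 CPM over KO libraries, against 22.6 CPM over WT libraries (edgeR adjusted p = 0.145).

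The follicular helper list had 2 higher and 0 lower of 13 tested genes (median log2 fold change 0.03). Pdcd1, the gene of the inhibitory receptor PD-1, had 6.23 to 9.94 CPM in KO and 2.70 to 4.23 CPM in WT (2.33-fold, edgeR adjusted p = 0.000318). Slamf6, a SLAM family receptor gene, had 430.0 to 522.0 CPM in KO and 277.5 to 334.5 CPM in WT (0.58, adjusted p = 5.59e-07). Cxcr5, the receptor gene that brings these cells into follicles, averaged 1.58 CPM over KO libraries, against 2.95 CPM over WT libraries (-0.89, adjusted p = 0.145). None of the 6 tested genes of the aryl hydrocarbon receptor list passed in edgeR or in DESeq2, and 1 of them, Ptges3, had an unadjusted p under 0.05 in each. Its target genes Cyp1a1 (5 reads in KO and 4 in WT) and Cyp1b1 (no read) were not tested.

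The CD8 and cytotoxic list had 0 higher and 3 lower of 7 tested genes (median log2 fold change -0.41). Crtam, a surface receptor gene of cytotoxic and activated T cells, had 2.81 to 5.19 CPM in KO and 8.30 to 11.9 CPM in WT (log2 fold change -1.34, edgeR adjusted p = 3.64e-05). Ctsw, a cathepsin gene of cytotoxic cells, had 31.1 to 37.7 CPM in KO and 48.0 to 62.4 CPM in WT (-0.63, adjusted p = 2.01e-05), and Klrd1, a natural killer receptor chain gene, had 14.2 to 15.8 CPM in KO and 18.8 to 24.8 CPM in WT (-0.51, adjusted p = 0.00837). Cd8b1 averaged 12.1 CPM over KO libraries, against 16.1 CPM over WT libraries (-0.41, adjusted p = 0.113), and Cd8a was covered by 10 KO reads and 18 WT reads. Runx3, which is known to activate genes of this kind, was higher in the same libraries, and a link between the 2 was not tested. Klrd1 lost its call without Sample_2915_WT (edgeR adjusted p = 0.0595).

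**Figure D5:**
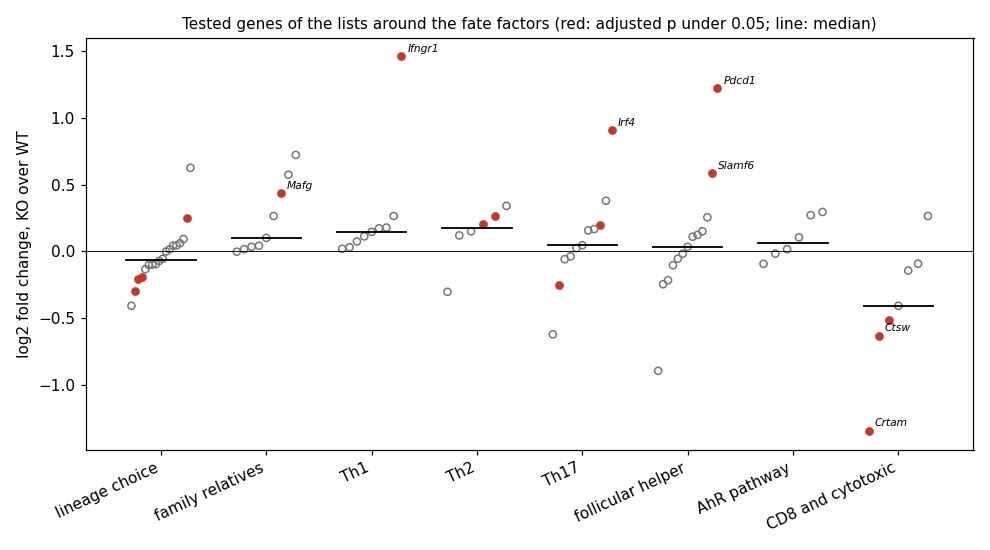
Log2 fold change of KO over WT for the tested genes of each of the 8 lists around the fate factors, with red points for an adjusted p under 0.05, open points otherwise, and a line at each list's median. Medians run from -0.41 in the CD8 and cytotoxic list to 0.18 in the Th2 list.

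Some summed markers of other cells differed between the groups, through few genes in some lists and through more of the list for regulatory T cells. Natural killer and innate lymphoid markers, which include cells with high Gata3 or Runx3, summed to 68.6 to 83.1 CPM in KO and 50.5 to 55.2 CPM in WT, with 10 of 10 detected. That difference was Il2rb, a cytokine receptor gene, with 47.0 to 60.3 CPM in KO and 18.1 to 26.4 CPM in WT. The other 9 markers summed to 21.6 to 24.8 CPM in KO and 26.9 to 32.7 CPM in WT, the opposite direction, with Klrd1 called lower as above. The defining genes Ncr1 (3 reads in KO and 4 in WT), Klrb1c (4 and 5) and Il1rl1 (4 and 3) were near 0. Regulatory T cell markers summed to 234.6 to 329.3 CPM in KO and 152.9 to 174.4 CPM in WT (7 of 7 detected), with Foxp3 at 55.1, 93.2, 112.7 and 112.6 CPM in the KO libraries, against 8.11, 8.83, 9.76 and 6.93 CPM in the WT libraries. Without Foxp3 the other 6 summed to 179.6 to 216.6 CPM in KO and 145.3 to 164.6 CPM in WT, without overlap. All 7 had log2 fold changes above 0, and 3 were called higher. Beside Foxp3 these were Tnfrsf18 (0.50, edgeR adjusted p = 0.00851) and Izumo1r (0.35, edgeR adjusted p = 0.00108). Among the KO libraries, Sample_2907_KO had the highest Gata3 and Runx3 and the lowest Foxp3. Sample_2908_KO had the lowest Gata3 and Runx3 and the next lowest Foxp3. Its Gata3 was nearly tied, at 66.0 CPM against 66.1 CPM in Sample_2909_KO, where Foxp3 was 112.7 CPM. Memory and activation markers summed to 243.3 to 266.3 CPM in KO and 175.9 to 200.5 CPM in WT (8 of 8 detected), a sum that holds Il2rb again. Of these, Il2rb and the activation marker Cd69 (110.3 CPM in KO and 66.3 CPM in WT on average) rose, and Cd44, a marker of antigen-experienced cells, fell (log2 fold change -0.34, edgeR adjusted p = 0.0262). Without Il2rb and Cd69 the other 6 summed to 86.2 to 101.5 CPM in KO and 95.2 to 107.5 CPM in WT, and the groups overlapped. The part of these cells in the higher Gata3 and Runx3 was not tested. CD8 markers summed to 9.65 to 14.7 CPM in KO and 13.2 to 18.2 CPM in WT, myeloid markers to 36.4 to 45.6 CPM in KO and 27.0 to 53.7 CPM in WT, and B cell markers to 3.57 to 5.63 CPM in KO and 2.81 to 4.51 CPM in WT.

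Genes whose profile over the 8 libraries was most like that of a member were found among 7090 genes that averaged 20 CPM or more, as the smallest root-mean-square difference of log2 CPM after each gene was centred on its own mean. For Gata3 these were Lmo4, which encodes a LIM domain protein (difference 0.0369), Wdr82, a subunit gene of histone methyltransferase complexes (0.0617), and Rasa1, a RAS GTPase-activating protein gene (0.0639). For Runx3 they included the kinase gene Pim1 (0.0717) and Dtx1, a Deltex ubiquitin ligase gene (0.0777). Their own log2 fold changes were 0.39 (Lmo4), 0.37 (Wdr82), 0.31 (Rasa1), 0.36 (Pim1) and 0.41 (Dtx1). All of these passed in the edgeR fit except Pim1 (adjusted p = 0.202). The profiles include the difference between KO and WT, so fold changes near those of the member follow from the selection. For Zbtb7b the nearest were Hdac5, Pitpnm1 and Zfp598 (0.0200 to 0.0360), for Runx1 they were Trmt2a, Synrg and Mib2 (0.0272 to 0.0341), and for Bcl6, with the largest differences of the 5, Actr6, Klhl12 and Ipo11 (0.0844 to 0.103).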

How the data were processed

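Per the labels' protocols, poly(A) RNA went into TruSeq v2 libraries, a kit that does not mark strand, and was read from 1 end. CASAVA 1.8.2, FastQC, R 3.5.3, DESeq2 1.22.2 and build mm10 are named in the submitters' processing notes. The aligner, the counter and any use of strand in counting are not stated in the labels. The authors deposited whole-number read counts for 53465 gene IDs, and a normalized signal table in which the deposited value is the count over 1 size factor per sample, limited to genes with at least 10 reads. Exon lengths and positions came from GENCODE M21, which held 99.6% of the IDs with versions ignored.

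KO and WT counts were compared in edgeR 4.0.16 under R 4.3.3 (quasi-likelihood F test, robust fit), with TMM scaling, filterByExpr and Benjamini-Hochberg adjustment over 11772 genes at a threshold of 0.05. SE was taken as the size of the log2 fold change divided by the root of F, and 95% intervals from it by the normal distribution. CPM are TMM-scaled, and groups are given as mean ± SD. Pooled read ratios carry exact conditional 95% intervals, which cover counting error only. Replicate libraries of a group differed beyond sampling noise (chi-square per gene 2.67 to 11.3), and whether they came from separate animals is not stated, so p-values rest on a spread that may be technical. The steps were tested on simulated counts. Alternatives were DESeq2 1.42.0, limma 3.58.1 (voom with sample weights, and limma-trend on log2 of the deposited values plus 1), RLE or no scaling, other filters, a non-robust fit, thinning to 5227758 reads, and leaving out libraries.

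The members and lists were chosen with earlier results of these data known. The rule names all members, Satb1, every called list gene, overlapping genes, and the 3 most similar genes of each member above 20 CPM. The choice of tested list genes named without passing, and that among scarce list genes, were made with the values known. Some genes that the rule names are not reported here.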

Additional observations from a re-analysis of the deposited data

How the results depend on the processing

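Over the 18 alternatives, Gata3 and Runx3 were the members called in 17. Leaving out Sample_2911_WT and Sample_2914_WT together gave 0 called members and 481 called genes in all (edgeR), with 4 KO and 2 WT libraries, so fewer samples. At an unadjusted p under 0.05 that fit had 2 members, Gata3 and Runx3. Leaving out 1 library gave 562 to 836 called genes, 2 called members each time, and 12 to 19 called genes in the lists. Satb1 passed with limma-voom (log2 fold change -0.19), library size only (-0.20), no count filter (-0.19), limma-trend (-0.19) and thinning (-0.20), and also without Sample_2908_KO (-0.25, edgeR adjusted p = 0.00152). It ranged from -0.25 to -0.15 without 1 library, and the other 7 such fits did not pass. The cause was not tested. Rora had log2 fold changes of -0.061 with limma-voom, -0.0239 with limma-trend, -0.0423 without the WT pair, and -0.21 to 0.13 without 1 library, and Zbtb7b had -0.095 to 0.0165 without 1 library. The pooled Tbx21 ratio ranged from 0.371 to 1.31 without 1 library. Ahr was not tested after thinning. No paired analysis was possible because the groups share no replicate numbers. Leaving out 1 library at a time for Cxcr3, Runx2 and Ccr8, and the marker sums without single genes, were added after seeing the data. Depth limits Tbx21, Ahr and the scarce list genes, for which single reads move the values.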
